A study of Homo sapiens with 23 samples.

Results

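The 10 genes described here encode Krüppel-like factors (KLF2, KLF3, KLF4, KLF5, KLF6, KLF9, KLF10, KLF11, KLF13 and KLF16), out of 20033 protein-coding genes annotated on chromosomes 1 to 22, X and Y. They were taken as a named list. The locus of each gene was its annotated body with 5 kb on both sides, and all 10 were found in the annotation. The data are lists of regions enriched for histone acylation in SW480 cells, an established human line of colorectal cancer epithelium, obtained by chromatin immunoprecipitation and sequencing (ChIP-seq), in which an antibody pulls down the chromatin that carries a mark. Propionylated lysines (H3K18pr, H4K12pr) were mapped after exposure to sodium propionate (NaPr) at 10 mM, and butyrylated lysines (H3K18bu, H4K12bu) after exposure to sodium butyrate (NaBu) at 1 mM. Acetylated lysines at the same histone positions (H3K18ac, H4K12ac) were mapped after either acid and without treatment. The 10 groups had 2 libraries each, which makes 20 immunoprecipitated libraries, and 1 input library of sheared chromatin without an antibody was deposited for each of the 3 conditions. All cells were of the same line, and the labels do not say whether replicates came from separate cultures, so p-values measure the spread between these libraries only.

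Propionate and butyrate are short-chain fatty acids that gut bacteria release from dietary fibre. Cells can turn them into acyl-CoA and place the acyl group on histone lysines that otherwise carry acetyl, and butyrate in particular also inhibits histone deacetylases. Acetylation at active genes typically sits on the nucleosomes that flank a start site, while the start site itself is kept free of nucleosomes. Krüppel-like factors are zinc finger transcription factors that bind GC-rich sequences, the GC box and the CACCC box. In the intestinal epithelium, KLF4 is known from differentiated cells and KLF5 from dividing crypt cells. KLF6, KLF10 and KLF11 are early response genes, the latter pair induced by TGF-β. KLF9 responds to steroid and thyroid hormones, KLF2 is best known from endothelium and quiescent T cells, KLF3 is a repressor that recruits CtBP, and KLF9, KLF10, KLF11, KLF13 and KLF16 can recruit the SIN3 corepressor.

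Percent covered counts the bases inside regions that passed the caller's threshold and not the enrichment within them. How much of any locus can be covered is therefore set by the number of regions in a list and by their width. Median widths were 460 to 513 bp in the propionyl lists and 246 to 337 bp in the acetyl lists of NaPr. The H4K12pr lists covered 114.5 and 81.6 Mb in all and the H4K12ac NaPr lists 44.9 and 38.2 Mb. The 4 propionyl lists held 94121 to 165556 regions and the 4 butyryl lists 8158 to 22497. Acetyl lists held 95194 to 202787 regions in NaPr, 11680 to 116459 in NaBu and 76888 to 208823 in untreated cells, and input lists held 30386 to 93923. H3K18ac NaPr replicate 1 stood apart: its Jaccard index (bases shared over bases in either list) was 0.512 with H4K12ac untreated replicate 1 and 0.300 with its own replicate, and replicate 2 was closest to H3K18pr NaPr replicate 2 (0.424). Comparisons of H3K18ac NaPr with 1 other group over all regions, and its start-site counts, are therefore given with and without replicate 1. For the stratified tests, the last section gives the range over left-out libraries. The 2 H4K12ac NaBu lists differed in length, at 88658 and 11680 regions. In both H3K18ac untreated lists, 7 of 9 epithelial marker genes (the exceptions were KRT20 and CDX1) had a region within 1 kb of the start site, beside 1 of 4 blood, 0 of 2 endothelial and 1 of 4 fibroblast markers and 62.1% of all genes. Run tags in the names of the deposited lists placed the propionyl libraries in another sequencing run than the acetyl libraries of NaPr, and all NaBu libraries in yet another. Differences of propionyl from acetyl, or of NaBu from untreated cells, cannot be told apart from the run, whereas butyryl against acetyl and NaPr against untreated acetylation lie within 1 run.

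The sequences printed next show where acylated regions sat at these genes: under a region in every list, in the gap around a start site, and inside an intron. Coordinates are on hg38, sequences read 5′ to 3′ along the strand of the gene, and capitals mark the GC box GGGCGG, or its complement CCGCCC. KLF6 (chr10:3775996-3785281, minus strand) had a region upstream of its start site in all 20 immunoprecipitated libraries, and 201 bases around the summit with the best median rank over the lists, at position -641 from the start site, are shown first (ranks follow the caller's p-value). The 178 bases just upstream of the KLF6 start site follow, which lay in the gap between the upstream and the downstream region, and which a region touched in 2 of 20 libraries. The third sequence, from KLF4 (chr9:107484852-107490482, minus strand), holds the 250 bases before the start site that RefSeq gives this gene, which lies 713 bp inside the longest GENCODE model. The last ones are the summits of best median rank at the low end of the coverage order, in introns of KLF5 (chr13:73054976-73077541, plus strand) and KLF13 (chr15:31326835-31435665, plus strand).
KLF6 upstream summit, chr10:3785822-3786022: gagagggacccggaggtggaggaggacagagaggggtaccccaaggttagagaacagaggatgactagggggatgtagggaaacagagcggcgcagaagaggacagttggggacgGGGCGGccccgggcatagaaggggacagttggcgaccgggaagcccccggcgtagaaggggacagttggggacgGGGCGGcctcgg
KLF6 before the start site, chr10:3785282-3785459: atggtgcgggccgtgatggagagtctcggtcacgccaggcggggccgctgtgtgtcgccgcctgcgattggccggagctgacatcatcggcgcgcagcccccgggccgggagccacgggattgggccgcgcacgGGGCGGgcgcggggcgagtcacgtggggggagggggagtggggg
KLF4 before the RefSeq start site, chr9:107489770-107490019: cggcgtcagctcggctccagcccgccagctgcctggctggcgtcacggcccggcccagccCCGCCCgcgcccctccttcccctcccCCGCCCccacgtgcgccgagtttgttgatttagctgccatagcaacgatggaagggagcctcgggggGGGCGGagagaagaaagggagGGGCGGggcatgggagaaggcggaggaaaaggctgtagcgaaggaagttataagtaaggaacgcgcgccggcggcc
KLF5 intronic summit, chr13:73060771-73060971: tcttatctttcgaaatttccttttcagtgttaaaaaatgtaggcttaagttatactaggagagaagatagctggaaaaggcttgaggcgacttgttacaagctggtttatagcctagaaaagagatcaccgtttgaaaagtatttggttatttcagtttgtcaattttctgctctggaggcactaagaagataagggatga
KLF13 intronic summit, chr15:31397952-31398152: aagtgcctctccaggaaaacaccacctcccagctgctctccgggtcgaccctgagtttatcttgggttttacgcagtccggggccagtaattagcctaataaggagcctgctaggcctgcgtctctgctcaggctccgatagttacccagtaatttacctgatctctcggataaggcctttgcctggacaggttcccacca

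The KLF6 windows are GC-rich, at 66.2% around the summit and 76.4% before the start site, with 2 GC boxes in the former and 1 in the latter. The KLF4 stretch is 69.2% GC and holds 4 GC boxes on both strands together, which can be read in the capitals. The KLF5 window is 36.3% GC and the KLF13 window 54.2%, and neither holds a GC box.

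Across the 20 immunoprecipitated libraries the members differed in how much of the locus lay inside a region. The median percent covered was 37.9% for KLF6, 15.1% for KLF10, 14.1% for KLF2, 13.2% for KLF4, 12.3% for KLF16, 9.72% for KLF3, 9.37% for KLF11, 9.33% for KLF9, 8.75% for KLF5 and 6.63% for KLF13. KLF6 was the most covered member in 18 of 20 libraries, the exceptions being H4K12pr NaPr replicate 1, where KLF2 was ahead, and H3K18ac NaPr replicate 1, where KLF16 was. Behind KLF6, neighbours in this order had overlapping ranges, since every other member reached 0% in at least 1 library except KLF13, whose lowest value was 0.148%. In the 3 inputs 16 of 30 values were 0%, and the highest was 5.19% for KLF16 in the untreated input. The loci are short and GC-rich, with a median locus length of 21584.5 bp against 37471 bp for all protein-coding genes and a median GC content of 71.3% against 59.2% in the 1 kb centred on the start site. KLF5 and KLF9 lay below the median of all genes, at 32.5% and 41.3% GC.

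**Figure D1:**
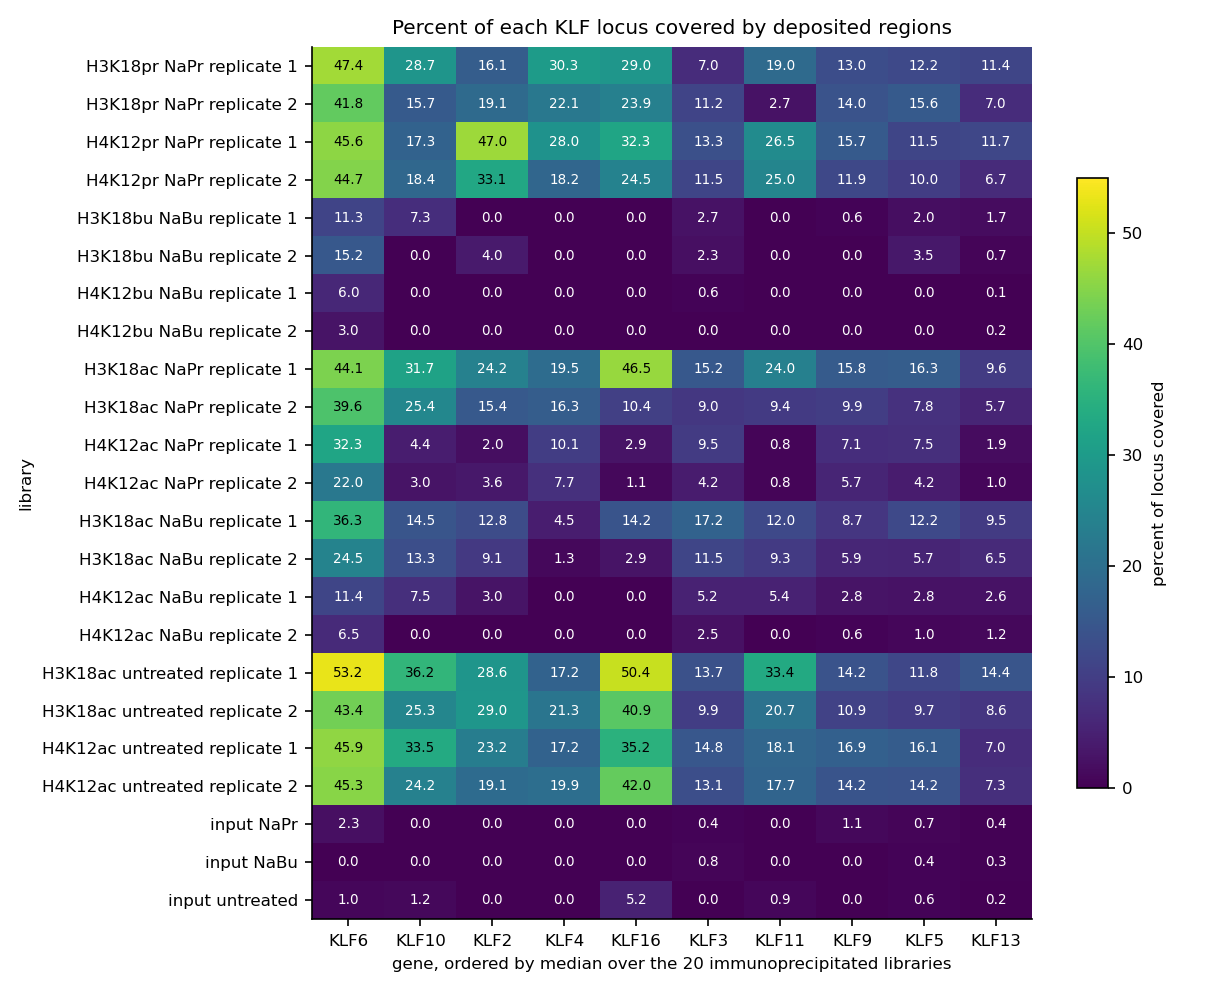
Percent of each locus (gene body with 5 kb on both sides) inside a deposited region, with 1 line for each of the 23 libraries and 1 column for each of the 10 genes, ordered by the median over the 20 immunoprecipitated libraries. KLF6, at the left, had a median of 37.9%, the butyryl libraries are near 0% at most genes, and the 3 inputs stay at or under 5.19%.

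In all, the 20 lists held 1113 regions at these loci, of which 116 overlapped a region of an input. By the position of the summit, 597 lay in an intron, 175 in the upstream flank, 168 in the downstream flank, 112 in an untranslated region and 61 in a coding exon. Not every region at a locus belongs to the KLF gene, because the KLF16 locus reaches the start site of REXO1 (1848483 on chromosome 19), which encodes an RNA exonuclease-like protein, and the KLF11 locus holds the end of CYS1.

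KLF6, a GC-box binding factor induced early after many stimuli, had a region within 1 kb of its start site in 20 of 20 immunoprecipitated libraries and in 0 of 3 inputs. H3K18pr covered 47.4% and 41.8% of the locus and H4K12pr 45.6% and 44.7%, while H3K18bu covered 11.3% and 15.2% and H4K12bu 6.04% and 3.01%. For acetylation it was 44.1% and 39.6% in H3K18ac NaPr, 32.3% and 21.96% in H4K12ac NaPr, 36.3% and 24.5% in H3K18ac NaBu, and 11.4% and 6.47% in H4K12ac NaBu. In untreated cells it was 53.2% and 43.4% for H3K18ac and 45.9% and 45.3% for H4K12ac, and the inputs had 2.29% (NaPr), 0% (NaBu) and 0.959% (untreated). Every immunoprecipitated library thus lay above every input, the lowest being the 2 H4K12bu libraries. The share of all genes with this order was not counted. Among all genes of the same library KLF6 ranked at the 96.3 percentile or higher, up to 99.8.

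The regions flanked the GENCODE start site of KLF6 without covering it, whereas the RefSeq start, 72 bp inside the gene, was covered in 8 libraries. The start base lay inside a region in 0 of 20 libraries, with the nearest region upstream 141 to 634 bp away and the nearest downstream 4 to 1523 bp away. A stretch of 270 bp, from 903 to 634 bp upstream (chr10:3785915-3786184), was inside a region in 20 of 20 lists, the 4 butyryl lists and the 8 NaBu lists included. The widest region, of 6365 bp in H4K12pr NaPr replicate 1, ran downstream from the start site through much of the gene. When regions were ranked within a list by the caller's p-value, with rank 1 the strongest, the best rank at KLF6 lay between 93 (H3K18pr NaPr replicate 2) and 3125 (H4K12ac NaBu replicate 2), with a median of 866.5. Of the 97 KLF6 regions, 26 overlapped a region of an input, which is the largest such count after the 31 of 115 at KLF16.

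KLF10, a TGF-β early response gene, was the second most covered member. H3K18pr covered 28.7% and 15.7% of its locus, H4K12pr 17.3% and 18.4%, H3K18bu 7.27% and 0%, and both H4K12bu libraries 0%. H3K18ac covered 31.7% and 25.4% in NaPr, 14.5% and 13.3% in NaBu and 36.2% and 25.3% in untreated cells. H4K12ac covered 4.44% and 3.00% in NaPr, 7.46% and 0% in NaBu and 33.5% and 24.2% in untreated cells. All 4 untreated acetyl libraries were therefore above every H4K12ac library of cells given either acid. For H4K12ac alone, both treated libraries lay below both untreated ones at 67.3% of all genes in NaPr and 74.3% in NaBu. The inputs gave 0%, 0% and 1.19%. The region that ranked highest, at 406 in H3K18ac untreated replicate 1, had its summit 296 bp inside the gene.

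KLF2, a factor of endothelium and quiescent T cells, differed between the propionylated positions when whole lists were used. H4K12pr covered 47.0% and 33.1% of its locus and H3K18pr 16.1% and 19.1%. Both H4K12pr libraries, which have the longer lists, thus lay above both H3K18pr libraries, as at 41.7% of all genes. With the 8158 strongest regions of each list the values overlapped, at 6.87% and 17.0% for H4K12pr and 8.23% and 13.2% for H3K18pr. The acetyl marks of the same condition had the other order, with 24.2% and 15.4% for H3K18ac NaPr and 2.05% and 3.56% for H4K12ac NaPr. Untreated cells had 28.6% and 29.0% for H3K18ac and 23.2% and 19.1% for H4K12ac, and NaBu 12.8% and 9.14% for H3K18ac and 2.97% and 0% for H4K12ac. Of the butyryl libraries only H3K18bu replicate 2 held a region, covering 3.99%, and the 3 inputs held none. Its most shared stretch, 643 to 428 bp upstream of the start site (chr19:16324183-16324398), was inside a region in 14 lists.

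KLF4 had regions in 14 of 20 libraries and in no input. Propionyl libraries covered 30.3% and 22.1% of the locus at H3K18 and 28.0% and 18.2% at H4K12. Acetyl libraries covered 19.5% and 16.3% (H3K18ac) and 10.1% and 7.66% (H4K12ac) in NaPr, and 17.2% and 21.3% (H3K18ac) and 17.2% and 19.9% (H4K12ac) in untreated cells. In NaBu, H3K18ac covered 4.51% and 1.25%, and the 4 butyryl and the 2 H4K12ac libraries held no region at all. Every NaPr or untreated library was thus above every NaBu library at this gene. The share of all genes with this order was not counted. Both NaBu libraries lay below both untreated ones at 58.7% of all genes for H3K18ac and 74.3% for H4K12ac. All NaBu libraries were in another run, and the butyryl lists are the shortest. KLF4 was also the member whose annotated start site was most often inside a region, in 13 libraries.

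That GENCODE start site is the first base of a longer transcript, and the RefSeq start site, 713 bp downstream, was inside a region in 0 of 20 libraries. In 13 libraries it fell into a gap between a region upstream and a region downstream, 363 to 1386 bp wide with a median of 464 bp. The widest gap was that of H3K18ac NaBu replicate 1. The 250 bases printed above, with 4 GC boxes, end at that RefSeq start site. At KLF6 the RefSeq start lies 72 bp inside the gene and was inside a region in 8 libraries. The count of start sites inside a region thus depends on the transcript model that is used, at KLF4 and KLF6 and at other members. KLF11 had its GENCODE start inside a region in 10 libraries and either RefSeq start in 7. For KLF5 it was 1 library at the GENCODE start and 3 at the second RefSeq start.

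KLF5, a factor of proliferating crypt cells, was covered to 12.2% and 15.6% by H3K18pr, 11.5% and 10.04% by H4K12pr, 1.97% and 3.55% by H3K18bu and 0% by both H4K12bu libraries. H3K18ac covered 16.3% and 7.78% in NaPr, 12.2% and 5.69% in NaBu and 11.8% and 9.71% in untreated cells. H4K12ac covered 7.49% and 4.24% in NaPr, 2.78% and 0.980% in NaBu and 16.1% and 14.2% in untreated cells, and the inputs 0.694%, 0.445% and 0.642%. Untreated H4K12ac was above untreated H3K18ac, which was found at KLF9 too and at no other member (35.8% of all genes). With the 8158 strongest regions, however, both genes were above in H3K18ac (15.8%). KLF5 then had 6.08% and 1.502% for H3K18ac and 0% for both H4K12ac libraries, and KLF9 12.8% and 10.2% against 7.65% and 7.71%. Within 5 kb of the start site, H3K18pr covered 28.4% and 33.4% and H4K12pr 4.72% and 0%, so the propionyl marks were closer over the whole locus than near its start. The most shared KLF5 position, in 16 lists, lay in an intron 5799 to 5843 bp inside the gene, downstream of the second RefSeq start site, which is 4029 bp inside it, and 17 of 102 KLF5 regions overlapped an input region.

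KLF13, a factor first described in T lymphocytes, has the longest locus, 118831 bp, and the lowest percent covered, but it had a region in 20 of 20 lists and 250 regions in all. H3K18pr gave 11.4% and 6.97%, H4K12pr 11.7% and 6.74%, H3K18bu 1.74% and 0.744% and H4K12bu 0.148% and 0.158%. H3K18ac gave 9.58% and 5.74% in NaPr, 9.52% and 6.52% in NaBu and 14.4% and 8.62% in untreated cells. H4K12ac gave 1.90% and 1.01% in NaPr, 2.62% and 1.18% in NaBu and 6.95% and 7.32% in untreated cells, and the inputs 0.413%, 0.297% and 0.159%. Both H4K12bu libraries were thus about level with the lowest input, at 176 and 188 bp against 189 bp in the untreated input. Their lists held 9642 and 8158 regions, and those of the inputs 30386 to 93923. The intronic stretch printed above, 71126 to 71301 bp inside the gene (chr15:31397961-31398136), was inside a region in 16 lists, among them 3 of 4 butyryl lists and 7 of 8 NaBu lists. At KLF13 the best rank was 1092, in H4K12ac NaBu replicate 1.

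**Figure D2:**
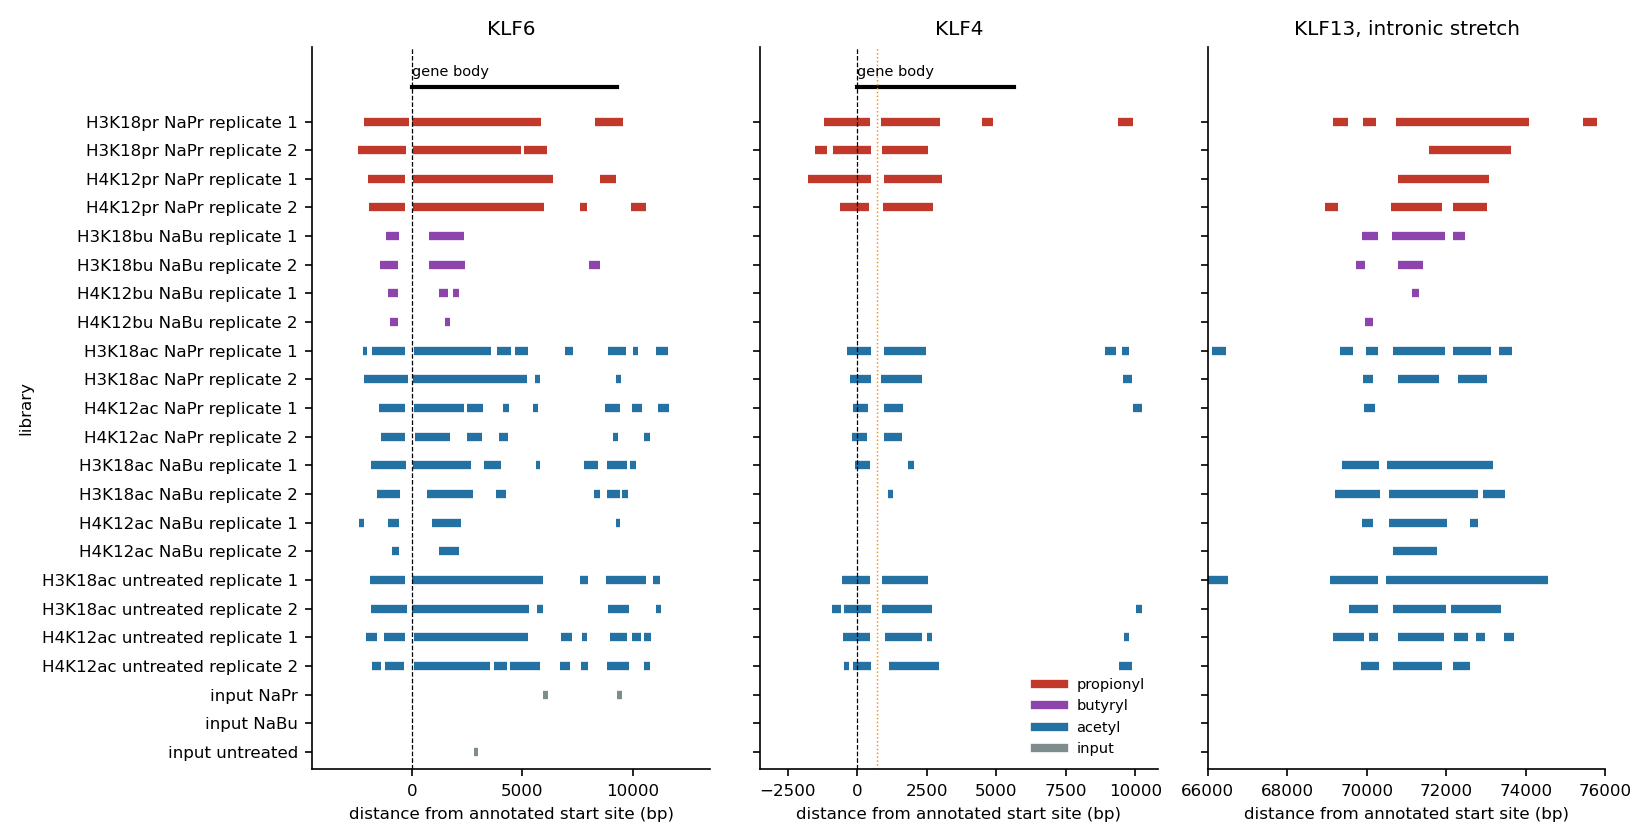
Regions of every library as bars, by distance from the GENCODE start site in bp, at KLF6, at KLF4 and around the intronic stretch of KLF13, with 1 line per library (red propionyl, purple butyryl, blue acetyl, grey input). The dashed line is the GENCODE start site and the dotted line at KLF4 the RefSeq start site. At KLF6 bars flank the start site in all 20 immunoprecipitated libraries, at KLF4 they leave the dotted line free, and the KLF13 stretch has bars in 3 of 4 butyryl libraries.

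The other members can be given by their ranges. KLF16, a widely expressed SIN3-recruiting factor, ranged from 0% to 50.4%, had no region in 6 libraries, namely the 4 butyryl and the 2 H4K12ac NaBu libraries, and had its start base in a region in 0 of 20. Its most shared stretch lay 14873 to 15037 bp downstream of its start site, next to the REXO1 start, and 31 of 115 KLF16 regions overlapped an input region. KLF11, the TGF-β-inducible relative of KLF10, ranged from 0% to 33.4%, and its start site was inside a region in 10 libraries. KLF3, the CtBP-binding repressor, ranged from 0% to 17.2%, with an intronic stretch 2620 to 2898 bp inside the gene in 3 of 4 butyryl and 7 of 8 NaBu lists. KLF9, the hormone-responsive member, ranged from 0% to 16.9%, and its best-ranked region, at rank 149 in H3K18ac untreated replicate 2, had its summit at position -5293 from the start site, beyond the edge of the locus.

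The position of the regions relative to the GENCODE start site was compared with that of all protein-coding genes. In H3K18ac untreated libraries, on average 58.0% of the bases within 100 bp of a member's start site were inside a region, against 39.1% over all genes. From 500 to 1500 bp downstream it was 73.6% against 31.2%, and over the same distances upstream 61.5% against 19.99%. The members thus had less at the start site than downstream, while the difference from upstream lay within the spread of the 2 libraries at the start site (SD 4.45 points). That SD is between libraries over the same 10 genes and does not measure how the genes vary. Among these positions, the start site had the highest value over all genes in H3K18ac untreated. That did not hold in H4K12ac untreated, where all genes had 22.04% at the start site and 30.8% downstream. For H3K18pr the values were 24.6% against 21.6% at the start site, 51.8% against 19.4% downstream and 54.8% against 13.2% upstream, and for H4K12pr 29.3% against 22.02%, 35.6% against 23.6% and 49.4% against 19.1%. In H3K18bu the members had 0% at the start site, 10.7% downstream and 12.2% upstream, against 2.44%, 2.23% and 2.29% over all genes. These H3K18bu means rest largely on KLF6. It was the single member with an H3K18bu region within 1 kb of the start site in both libraries (9.76% of all genes).

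**Figure D3:**
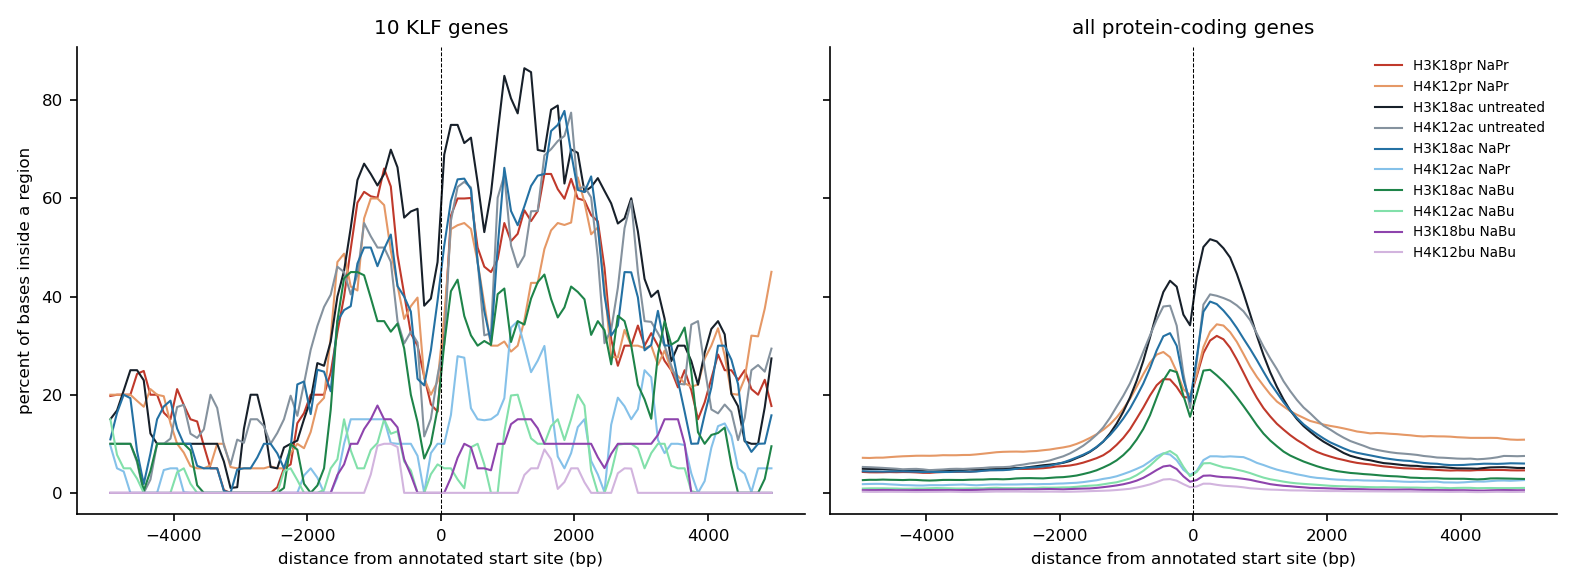
Mean percent of bases inside a region by distance from the annotated start site in bp, averaged over the 2 libraries of each group, for the 10 Krüppel-like factor genes (left) and all protein-coding genes (right). In H3K18ac untreated libraries the members reach 73.6% between 500 and 1500 bp downstream and all genes 31.2%.

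Occupancy of the start base in both libraries of a group was seen for few members, and the background is the percent of all 20033 genes. H3K18pr held the start base of 1 member (KLF4, background 13.3%), H4K12pr of 2 (KLF4 and KLF11, 13.3%), H3K18ac NaPr of 3 (KLF3, KLF4 and KLF11, 12.6%; in replicate 2 alone also KLF10, 16.3%) and H4K12ac NaPr of 1 (KLF4, 1.88%). H3K18ac untreated held 5 (KLF2, KLF3, KLF4, KLF10 and KLF11, 29.5%) and H4K12ac untreated 2 (KLF4 and KLF11, 14.2%). No member start base was held in both libraries of H3K18bu (0.993%), H4K12bu (0.629%), H3K18ac NaBu (8.7%) or H4K12ac NaBu (1.41%), nor in the NaPr (0.889%), NaBu (0.165%) or untreated (4.57%) input. No butyryl library held any.

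The stretch within 1 kb of the start site contains the start base, so a region in it cannot be found for fewer members. In all 10 groups more members, and a larger share of all genes, had such a region. Both libraries held one for 9 members in H3K18pr (42% of all genes), 8 in H4K12pr (48.6%), 10 in H3K18ac NaPr (51.1%, and 54.2% with replicate 2 alone, which necessarily held the 10 too), 9 in H3K18ac untreated (62.1%) and 10 in H4K12ac untreated (59.4%). H3K18ac NaBu had 6 (42%) and H4K12ac NaPr 2 (18.6%), KLF4 and KLF6. In H3K18bu (9.76%), H4K12bu (5.34%) and H4K12ac NaBu (13.7%) KLF6 was the single member. The inputs had none in NaPr (7.85%) and NaBu (2.89%) and 1, KLF16, in untreated cells (17.8%).

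Acyl and acetyl marks at the same histone position and treatment were compared first over all 16 libraries. The median difference in percent covered (acyl minus acetyl) was 0.01 percentage points over the members and 0.05 over all genes, with 5 members higher and 5 lower. In the exact stratified permutation test (two-sided, adjusted by Benjamini-Hochberg over 19147 genes) 0 genes had an adjusted p under 0.05, 579 (3.02%) had an unadjusted p under 0.05, and no member was among them. The smallest p this test can give is 0.00154, so 591 genes would have to reach it before any could be called.

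Split by treatment, the members lay on opposite sides. In NaPr the propionyl libraries covered a median of 7.09 points more than the acetyl libraries, with 10 of 10 members higher, against 1.29 points and 75.7% of all genes. The 7.09 points became 3.43 without H3K18ac NaPr replicate 2 and 1.22 with the 8158 strongest regions. In NaBu the median of butyryl minus acetyl was -4.79 points, with 0 of 10 members higher, against -1.205 points and 0.708% of all genes. The acetyl libraries themselves covered more of the members than of all genes, with library medians of 3.88% to 21.8% against 1.40% to 6.25% in NaPr. For NaBu these were 0.276% to 12.5% against 0% to 2.30%. Differences in points are therefore not proportional changes, which were not compared. With 36 arrangements the smallest p of either test is 0.0556, so neither could pass the threshold, and no gene had an unadjusted p under 0.05 in the exact permutation test. At KLF4 the propionyl mean was 24.7% against 13.4% (exact permutation p = 0.0556, adjusted p = 0.591), and at KLF6 the butyryl mean was 8.89% against 19.7% (exact permutation p = 0.0556, adjusted p = 0.256).

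The H4K12 lists of NaPr were apart at every member. All 10 members were higher in both H4K12pr libraries than in both H4K12ac NaPr libraries (61.3% of genes, and 4.93% the other way). H3K18pr was apart from H3K18ac NaPr at 1 member, KLF4, which was higher (12.5%), and at none in the other direction (11.1%), and with regions of q under 0.05 at none (11.9% higher). Without H3K18ac NaPr replicate 1 it was higher at 7 members, all but KLF3, KLF10 and KLF11 (48%), and lower at 0 (14.8%). With H3K18ac NaPr replicate 1 the median difference over members was -0.68 points and without it 3.50 points, the values for all genes being -0.46 and 0.73. KLF16 moved most, from -2.00 to 16.0 points. In NaBu all 10 members were lower in H3K18bu than in H3K18ac (64.4%) and 0 higher (0.0799%). At H4K12 5 members (KLF3, KLF5, KLF6, KLF9 and KLF13) were lower in the butyryl than in the acetyl libraries (20.1%) and 0 higher (0.105%). With regions of q under 0.05 none of these 5 was lower (7.87%). The butyryl lists are the shortest of the series, and 24 of the 40 values that the members have in them are 0%.

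**Figure D4:**
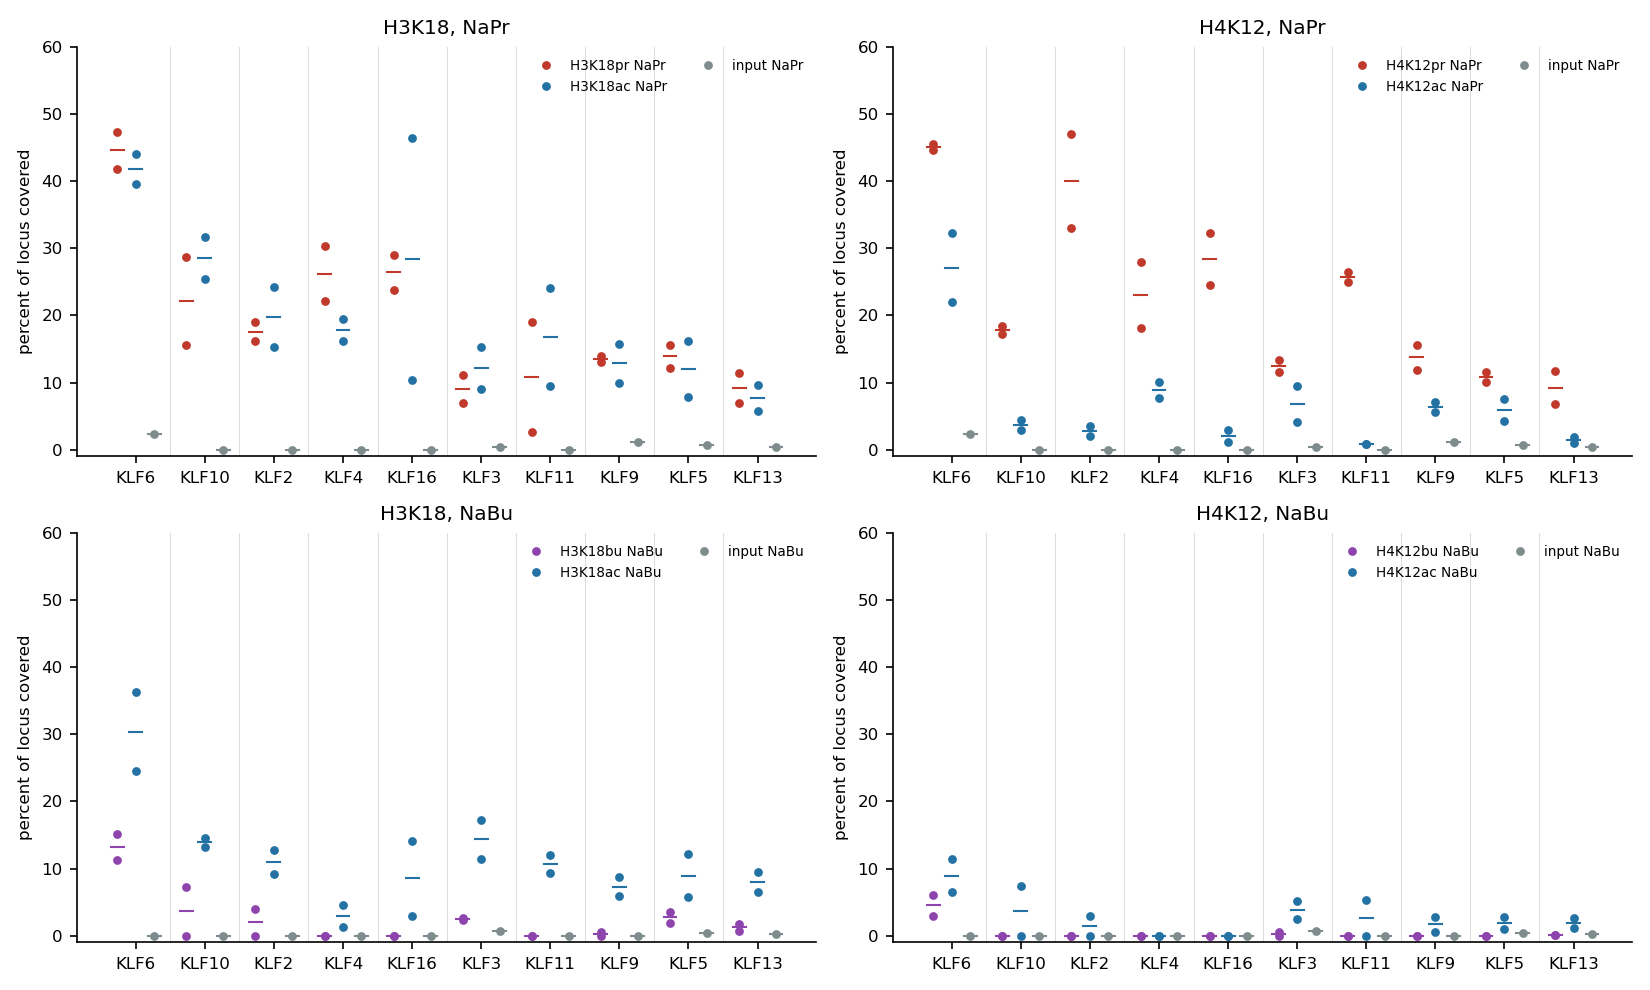
Percent of the locus covered for each gene in acyl (red propionyl, purple butyryl), acetyl (blue) and input (grey) libraries, by histone position and treatment; points are libraries and bars group means. At H4K12 in NaPr all propionyl points lie above the acetyl points of the same gene, and at H3K18 in NaBu all butyryl points lie below.

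To set list length aside, the strongest 8158 regions of each list, as many as the shortest holds, were compared in the same way. Region widths were left as deposited, so differences in width between lists remain in this comparison. Equal numbers also do not make the regions equally strong. The 8158 regions are the whole list of H4K12bu replicate 2, where 1457 had q under 0.05. In H4K12ac untreated replicate 1 they are the strongest of 208823, where 190885 had q under 0.05. H4K12pr was then higher at 6 members (KLF2, KLF4, KLF6, KLF9, KLF10 and KLF16, background 17.8%). H3K18pr was higher at 2, KLF2 and KLF4 (9.05%), and lower at 1, KLF16 (6.28%). H3K18bu was lower at 6 (19.7%) and H4K12bu at 4 (8.8%). At KLF4 the 4 propionyl libraries then covered 18.2% to 28.0%, both H4K12ac NaPr libraries 0% and the H3K18ac NaPr libraries 5.51% and 14.2%. KLF6 kept 36.5% to 41.8% in the propionyl libraries and 3.01% to 11.3% in the butyryl libraries.

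Acetyl marks of cells given an acid were set against those of untreated cells. The median difference in percent covered, NaPr minus untreated, was -8.999 points over the members and -1.76 over all genes, with 0 of 10 members higher against 17.3% of genes. NaBu minus untreated gave -16.6 against -3.94, with 0 of 10 members higher against 8.09%. Members started from more coverage, with untreated library medians of 17.6% to 22.9% against 4.08% to 5.72% over all genes. A larger difference in points is thus not necessarily a larger proportional change, which was not compared. The smallest possible p of both exact permutation tests is 0.0556, and no gene had an unadjusted p under 0.05. KLF6 had 46.9% in untreated, 34.5% in NaPr and 19.7% in NaBu acetyl libraries as means over both positions, and KLF4 had 18.9%, 13.4% and 1.44%.

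With all regions and both replicates, the NaPr difference was apart at more members for H4K12ac than for H3K18ac. All 10 members were lower in both H4K12ac NaPr libraries than in both untreated ones (67.3%) and 0 higher (5.66%), while H3K18ac was lower at 1, KLF2 (14.6%), and higher at 0 (4.72%). Without H3K18ac NaPr replicate 1, H3K18ac was lower at 9 members, all but KLF10 (63.6%), and higher at 0 (9.67%). The median difference of H3K18ac then went from -3.01 to -5.54 points, and over all genes from 0 to -1.54. In NaBu all 10 members were lower for H4K12ac (74.3%) and 0 higher (0.25%), and 7 were lower for H3K18ac (58.7%) and 0 higher (3.19%), the others being KLF3, KLF5 and KLF13. The 8158 strongest regions left 7 members lower for H3K18ac in NaPr (12.9%) and 5 for H4K12ac (23.4%), and in NaBu 6 lower for H3K18ac (21.7%) and 5 for H4K12ac (23.5%). In that comparison KLF3 was higher for H3K18ac (4.88%) and KLF13 for H4K12ac (3.74%) in NaBu than in untreated cells.

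**Figure D5:**
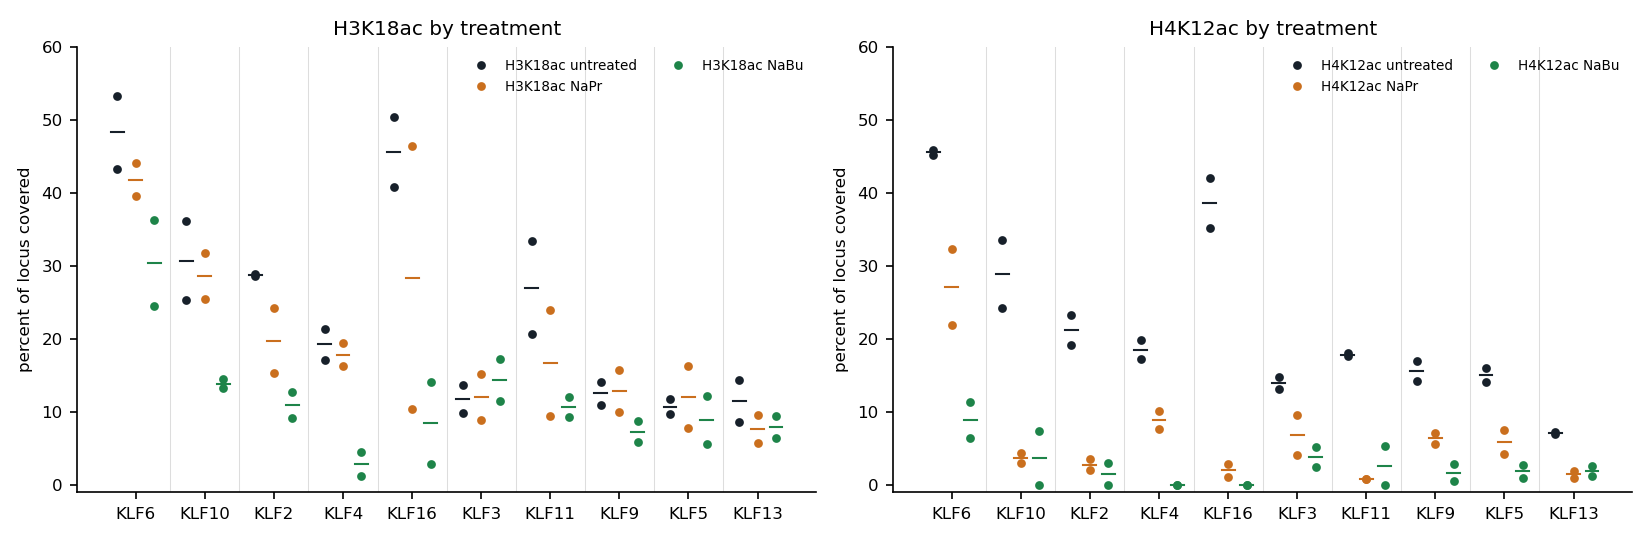
Percent of the locus covered by H3K18ac (left) and H4K12ac (right) regions in untreated (black), NaPr (orange) and NaBu (green) libraries; points are libraries and bars group means. For H4K12ac every treated point lies below both untreated points of its gene, and for H3K18ac in NaPr, with both replicates, this holds at KLF2 alone.

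The comparison of H3K18 versus H4K12 coverage was made within the same acyl group and treatment, over all 20 libraries. H3K18 covered more than H4K12 at 10 of 10 members, against 56.1% of all genes, with a median difference of 3.35 points against 0.10. In the exact stratified permutation test 0 of 19259 genes had an adjusted p under 0.05, and 2827 (14.7%) had an unadjusted p under 0.05, 4 members among them. These were KLF6, with a mean of 35.7% against 26.3% (exact permutation p = 0.00437, adjusted p = 0.121), KLF13, with 7.53% against 3.97% (p = 0.00694, adjusted p = 0.15), KLF10, with 19.8% against 10.8% (p = 0.0139, adjusted p = 0.198), and KLF16, with 21.8% against 13.8% (p = 0.0417, adjusted p = 0.315). KLF13 was the single member with an adjusted p under 0.05 under any alternative, at 0.0307 when its percentile within each library was tested. There 1902 of 20033 genes passed, so 1 of 10 members is near the share of all genes. Libraries with the same replicate number deviated together in all 5 pairs of groups (correlations of 0.193 to 0.332 over genes), and with the replicate number as a block 0 genes had an adjusted p under 0.05. In that exact permutation test KLF16 had p = 0.0938 and KLF4, which had p = 0.0571 without the block, p = 0.0156 (adjusted p = 0.24).

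By pairs of groups, the order depended on the acyl group and on the length of the lists. In acetyl libraries of NaPr, 9 members (all but KLF3) were higher at H3K18 (39%) and 0 lower (4.24%), and in NaBu 10 were higher (44%) and 0 lower (0.0749%). In untreated cells KLF2, KLF11 and KLF13 were higher at H3K18 (19.7%), and KLF5 and KLF9 lower (35.8%). In butyryl libraries KLF3, KLF5, KLF6 and KLF13 were higher at H3K18 (21.2%) and 0 lower (0.734%). In propionyl libraries KLF5 was higher at H3K18 (7.74%) and KLF2, KLF3 and KLF11 lower (41.7%). With the 8158 strongest regions none of these 4 was apart in the propionyl libraries, where KLF10 was higher at H3K18 (6.52%) and KLF16 lower (6.26%). In untreated cells 6 members were then higher at H3K18, KLF5 and KLF9 among them (15.8%), and 0 lower (4.96%). Acetyl libraries of NaPr (15.9%) and of NaBu (19.4%) had 6 higher each, and butyryl libraries 1, KLF6 (8.46%), which was also the single one with regions of q under 0.05 (12.5%). Without H3K18ac NaPr replicate 1, the same 9 members were higher at H3K18 in NaPr (44.4%) and 0 lower (25.6%). These 9 could not drop out, because leaving out a library cannot make groups that are apart overlap. The median difference between H3K18ac and H4K12ac in NaPr then went from 11.9 to 7.87 points over the members and from 1.98 to 0.12 over all genes.

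Among the other 16 genes of the KLF and SP families, SP5, an SP factor known as a target of Wnt signalling, had the highest median percent covered, 15.7%, and KLF8 and KLF17 the lowest, 0%. Propionyl against acetyl gave a median difference of -0.17 points over these 16 genes, with 7 higher, and H3K18 against H4K12 gave 0.43, with 11 higher. NaBu against untreated acetylation gave -7.50, with 2 higher. No list-wide test was run on either set. The genes whose percentile followed that of KLF4 most closely over the 20 libraries were TMEM72, FYCO1 and STK11 (Spearman correlations of 0.959, 0.955 and 0.953), and those of KLF5 were FABP3, WWC2 and UFL1 (0.851, 0.851 and 0.847). Libraries share list length and run across genes, so these are descriptions only.

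The motifs that Krüppel-like factors bind were counted in RefSeq promoters of GRCh38.p14, 250 bases before to 50 after each start, on both strands. The table has 10 entries for 8 of the genes and none for KLF3 and KLF10. GGGCGG was found in 8 of the 10 entries and in 45% of 35116 promoters, and CACCC in 4 and 59.9%. GGGTGTGG, which contains the complement of CACCC, was found in 0 and 3.28%, and TGANTCA, the AP-1 site, in 0 and 7.71%. The entries without GGGCGG were those of KLF9 and of the first KLF5 start. In windows of 201 bases around all 76888 summits of H3K18ac untreated replicate 1, the shares were 14.4%, 50.1%, 3.18% and 4.55% in the same order.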

How the data were processed

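ChIP-seq region lists of 20 immunoprecipitated and 3 input libraries of SW480 cells were analysed. Per the paper's methods and the submitters' processing notes, the authors demultiplexed reads with bcl2fastq 2.17.1, trimmed them with cutadapt 1.8.1, aligned them to GRCh38 with Bowtie2 2.3.1 and called peaks per library with MACS2 2.1.0 against input, in an ENCODE-type pipeline. For the 3 input lists, the control is not given in the sources used here. The deposited columns hold a fold enrichment (a ratio) at the summit, a −log10 p-value, a −log10 q-value and the summit offset, and the authors did not pool replicates. Chromosome, start and end in the deposited lists give the position of each region. Read depth is unknown from the lists, so no counting interval is given and the number of regions limits precision.

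Loci were GENCODE 44 gene bodies with 5 kb on both sides, on hg38. Percent covered is the share of the locus inside regions, the percentile is that of the gene among 20033 protein-coding genes of the same library, and ranks follow the −log10 p of the deposited list. A region counted as at the start site when it held the start base or lay within 1 kb. Group means of percent covered were compared by two-sided exact permutation within strata, per gene over all genes with a region in any library of the test, with Benjamini-Hochberg adjustment and a threshold of 0.05. The scripts were tested on simulated data. Groups called apart had both libraries of one above both of the other. Leaving out a library can only add to the genes at which groups are apart. The study compared marks on reads, which were not used here. Alternatives were the 8158 strongest regions of each list, q under 0.05, other windows, percentiles, left-out replicates and a replicate block. Groups were taken from the labels, and the run of a library only from the names of the lists.

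All 10 members are named. Values in every library are given for the 3 members with the highest and the 2 with the lowest median percent covered, for KLF4 and KLF5, and for any member that a test called. The members and lists were chosen with earlier results of these data known. Python 3.11.15 was used with NumPy 2.4.6, pandas 2.3.3 and matplotlib 3.10.9.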

Additional observations from a re-analysis of the deposited data

Results flagged for a closer look

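Each of the following is a pair of differences in mean percent covered, in percentage points, that have opposite signs with no overlap between the libraries on either side. None of these differences between differences was tested, and list lengths, region widths and sequencing runs differ between the groups. With the 8158 strongest regions of each list, 2 of the 20 pairs still had opposite signs without overlap, KLF6 (24.8 and -2.318) and KLF9 (3.887 and -0.848), both for acyl minus acetyl at H4K12. Of the 5 pairs that use H3K18ac NaPr, all 5 still did without its replicate 1. That was fixed in advance, since leaving out a library cannot make groups that are apart overlap, so only the sizes can change.

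Acyl minus acetyl had opposite signs in NaPr and NaBu at 6 genes. At H4K12, propionyl was above acetyl at 61.3% of all genes and butyryl below acetyl at 20.1%. For H3K18 these shares were 12.5% and 64.4%. At H3K18 the difference was 8.32 for propionyl and -2.88 for butyryl at KLF4, 11.2 apart (9.93 for propionyl without H3K18ac NaPr replicate 1). At H4K12 it was 18.03 and -4.41 at KLF6 (22.4 apart), 7.76 and -1.75 at KLF13 (9.51), 5.57 and -3.55 at KLF3 (9.11), 7.40 and -1.70 at KLF9 (9.10) and 4.91 and -1.88 at KLF5 (6.79).

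H3K18 minus H4K12 differed between propionyl and other libraries at KLF2, where propionyl gave -22.4 and acetyl 17.0 in NaPr, 9.47 in NaBu and 7.62 in untreated cells (-39.4, -31.9 and -30.0 apart). At KLF11 propionyl gave -14.9 and acetyl 15.9, 7.998 and 9.16 (-30.8, -22.9 and -24.1 apart). Without H3K18ac NaPr replicate 1, acetyl in NaPr gave 12.5 at KLF2 and 8.60 at KLF11. At KLF3 propionyl gave -3.35, butyryl 2.18 and acetyl in NaBu 10.52 (-5.53 and -13.9 apart). Over all genes, H3K18 was below H4K12 at 41.7% in propionyl libraries and above it at 21.2% in butyryl libraries. In acetyl libraries H3K18 was above H4K12 at 39% (NaPr), 44% (NaBu) and 19.7% (untreated).

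For KLF5 and KLF9 the untreated acetyl libraries stood opposite to others with all regions only, and with the 8158 strongest regions their difference turned positive, to 3.79 and 3.81. At KLF5 H3K18 minus H4K12 was -4.38 in untreated acetyl libraries, against 3.12 for propionyl, 2.76 for butyryl, 6.16 for acetyl in NaPr and 7.08 for acetyl in NaBu (7.50, 7.14, 10.54 and 11.5 apart). At KLF9 it was -3.03, against 6.45 for acetyl in NaPr and 5.62 for acetyl in NaBu (9.48 and 8.65 apart). Without H3K18ac NaPr replicate 1, acetyl in NaPr gave 1.92 at KLF5 and 3.55 at KLF9. In untreated libraries H3K18ac was below H4K12ac at 35.8% of all genes.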

How the results depend on the processing

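Values are median differences in percentage points over the 10 members. With the 8158 strongest regions they were -0.29 for acyl versus acetyl coverage, 1.22 for propionyl versus acetyl coverage, -1.47 for butyryl versus acetyl coverage, -4.67 for NaPr versus untreated acetyl coverage and -6.03 for NaBu versus untreated acetyl coverage, and with 1 kb flanks -19.5 for NaBu. In 5 kb around the start site they were -0.50 (acyl), 11.3 (H3K18 versus H4K12 coverage), 13.4 (propionyl), -9.32 (butyryl), -14.3 (NaPr) and -23.8 (NaBu). As percentiles they were -7.82, 12.9, 0.92, -18.3, -4.36 and -6.65 in that order. Genes without a region share a percentile that depends on the list, such as 11.5 in H4K12ac NaBu replicate 1 and 39.5 in H4K12bu replicate 2. The percentile differences therefore also reflect how many genes in each list lack a region. Leaving out 1 library gave -0.65 to 0.93 (acyl), 2.49 to 4.08 (H3K18 versus H4K12), 3.43 to 9.46 (propionyl), -6.61 to -3.99 (butyryl), -9.97 to -7.38 (NaPr) and -17.6 to -15.4 (NaBu). The 2.49 and -9.97 were those without H3K18ac NaPr replicate 1, and the -0.65, 3.43 and -7.38 those without its replicate 2. The sign of the acyl difference depended on the library left out. H3K18 versus H4K12 then called up to 644 genes (without H4K12pr NaPr replicate 1) and 0 members, and its percentile alternative called 1902 genes. The cause was not tested.

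Replicate numbers 1 and 2 were not a block in the tests reported. Differences between replicates correlated at 0.072 to 0.332 over genes, the single value under 0.1 being that of H4K12pr with H4K12ac in NaPr. With a replicate block the median differences stayed 0.01, 3.35, 7.09, -4.79, -8.999 and -16.6 and 0 genes were called, 483 and 2350 genes having an unadjusted p under 0.05 in the first 2 exact permutation tests.

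Start sites counted as within 1 kb were 9 (H3K18pr), 8 (H4K12pr), 1 (H3K18bu), 1 (H4K12bu), 10 (H3K18ac NaPr), 2 (H4K12ac NaPr), 6 (H3K18ac NaBu), 1 (H4K12ac NaBu), 9 (H3K18ac untreated), 10 (H4K12ac untreated) and 1 (untreated input). Beside the share of all genes, any coding transcript start gave 2 for H3K18pr (24.4%) and 1 for H3K18ac NaBu (17.3%). The 8158 strongest regions gave 1 (H4K12pr, 5.24%), 1 (H3K18ac NaPr, 5.21%), 0 (H4K12ac NaPr, 1.25%), 3 (H3K18ac untreated, 13.6%) and 1 (H4K12ac untreated, 6.76%). At least 1 of the 2 replicates gave 3 (H3K18pr, 28.7%), 5 (H3K18ac NaPr, 28.8%), 5 (H3K18ac NaBu, 23.7%) and 1 (H4K12ac NaBu, 5.18%). Of 104 counts of members apart, 25 moved by over 1.5 times, or to or from 0. The 20 median best ranks obtained by fold or without input regions were judged by a looser rule. None of them changed by as much as the standard deviation of that gene's best ranks over the immunoprecipitated libraries, which is wide. The settings with 1 kb flanks and 5 kb around the start site for those counts, the pair differences, counts and start sites without H3K18ac NaPr replicate 1, and the opposite pairs with the 8158 strongest regions, were added after seeing the data. Lists hold no read depth, so a locus without a region was not detectable at its list's threshold rather than unmarked.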
